A study of Mus musculus with 9 samples.

Results

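The regulators of G-protein signalling (RGS) examined here are 9 mouse genes, Rgs1, Rgs2, Rgs3, Rgs10, Rgs12, Rgs14, Rgs16, Rgs18 and Rgs19, taken by symbol from a table of counts for 43432 Ensembl genes. All 9 were found, and all 9 were among the 13685 genes with enough counts to be tested. RNA was sequenced from cultured Tregs of C57BL/6 mice, regulatory T cells that depend on Foxp3 and restrain other lymphocytes. Cells with high surface CD62L were sorted, stimulated on beads through CD3 and CD28, and held in medium with 2000 U/ml interleukin-2 up to day 4. The 4 Ezh2-deficient libraries carried the alleles Foxp3-Cre-GFP, R26-LSL-RFP and Ezh2-fl/fl. The 5 WT libraries carried the same Foxp3-Cre-GFP and R26-LSL-RFP alleles, with Ezh2-fl/+ in WT replicate 1 and Ezh2-+/+ in the other 4. Because Foxp3 drives the Cre recombinase, deletion of Ezh2 is limited to cells that express Foxp3. Ezh2 encodes the catalytic subunit of Polycomb repressive complex 2, which methylates histone H3 at lysine 27. Animal age is not given in the sources used here.

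Total counts were 33718125 to 62201921 per Ezh2-deficient and 32469450 to 59796319 per WT library. Levels are CPM, counts scaled to a common library size, and Ezh2 itself was at 153 to 167 CPM in the Ezh2-deficient and 234 to 360 CPM in the WT libraries (log2 fold change -0.88, edgeR adjusted p = 0.000363). Libraries of both groups fell into 5 with a higher and 4 with a lower score of hypoxia-response transcripts, the mean log2 CPM of 24 genes. The 5 scored 6.71 to 6.99 (2 Ezh2-deficient, 3 WT) and the 4 scored 5.34 to 5.40 (2 Ezh2-deficient, 2 WT), so within each set the groups could still be compared. The summed level of 7 Treg markers, Foxp3 and Il2ra among them, was 10511 to 11352 CPM without Ezh2 and 9515 to 10328 CPM in WT. In bulk RNA, fewer cells of a type and less RNA per cell cannot be told apart. Both groups mixed sexes, assigned here by whether Xist or the Y-linked transcripts were higher. By this, 2 Ezh2-deficient libraries were female and 2 male, and 2 WT libraries were female and 3 male.

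G proteins relay signals from receptors such as those for chemokines and sphingosine 1-phosphate, and they stay active while their alpha subunit holds GTP. RGS proteins carry a domain that speeds the hydrolysis of that GTP and so ends the signal. In lymphocytes they are known for limiting migration toward chemokines. The small members Rgs1, Rgs2, Rgs10, Rgs16, Rgs18 and Rgs19 consist of little beyond this domain. Rgs12 and Rgs14 are larger and also hold a GoLoco motif, which binds inactive alpha subunits of the Gi class, and Ras-binding domains.

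Without Ezh2, 2 of the 9 Rgs transcripts rose, Rgs10 and Rgs12, and 1 fell, Rgs19, each by less than 1.5-fold. The other 6 did not pass the test. Among all genes tested, 13.1% rose and 8.8% fell at an adjusted p under 0.05, 21.9% together, so 3 of 9 is a number near the background. The median log2 fold change was 0.18 over the 9 and 0.0026 over all genes tested. The summed level of the 9 was 750.0 to 835 CPM without Ezh2 and 649 to 784 CPM in WT. Rgs1 supplied 35.6 to 38.1% of that sum in the former and 27 to 43.9% in the latter.

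**Figure D1:**
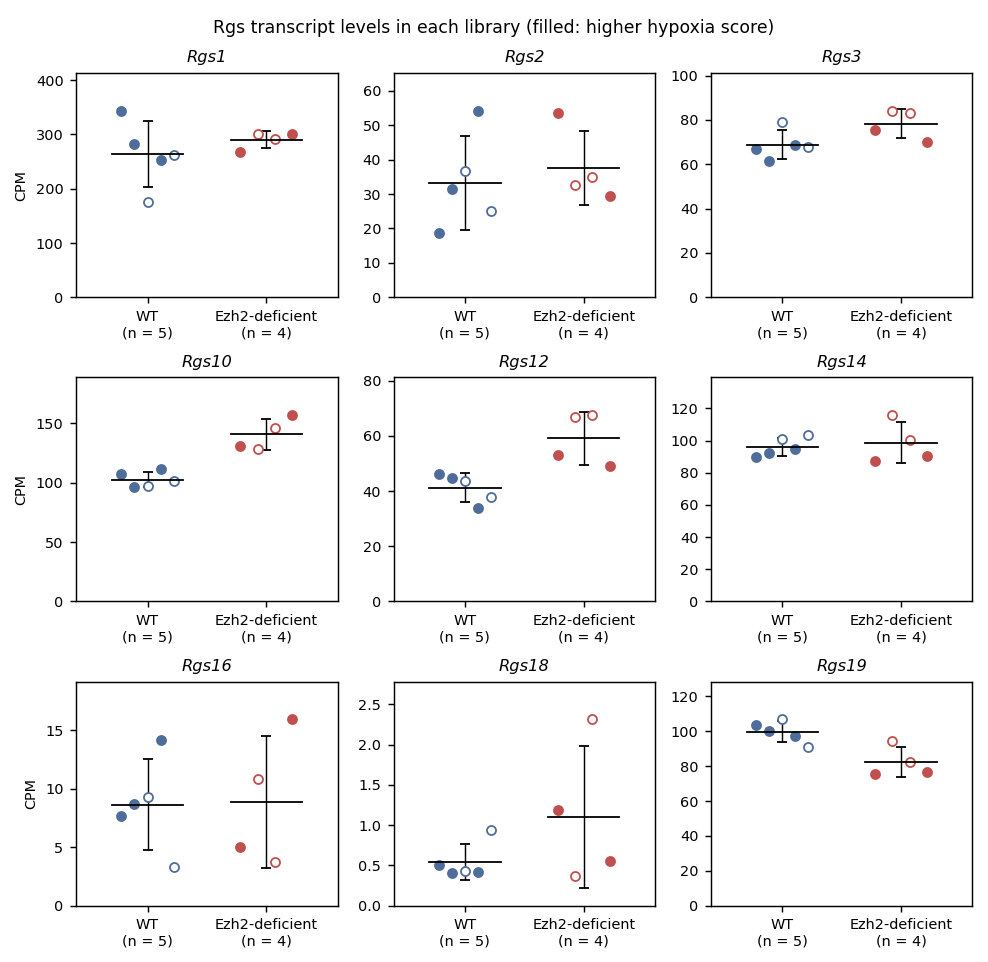
CPM of each Rgs gene (vertical axes, linear, from 0) in 5 WT and 4 Ezh2-deficient libraries, 1 point per library, with the mean (line) and SD (bar); filled points are the 5 libraries with the higher hypoxia score. Rgs10 and Rgs12 do not overlap between the groups, whereas the points of Rgs2, Rgs16 and Rgs18 are widely spread within a group.

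Rgs10 encodes a small RGS protein that acts on Gi-class alpha subunits and is known for restraining inflammatory responses of microglia and macrophages. The gene (ENSMUSG00000030844) lies on the minus strand of GRCm38 chromosome 7, 128373621 to 128418758. Its transcript was at 131, 129, 146 and 157 CPM in Ezh2-deficient replicates 1 to 4 and at 107, 96.7, 96.9, 111 and 101 CPM in WT replicates 1 to 5. Every Ezh2-deficient library lay above every WT library. The mean was 141 ± 13.4 CPM (SD, n = 4) without Ezh2, against 103 ± 6.46 CPM in WT (SD, n = 5), which is a 1.37-fold rise (log2 fold change 0.46, SE 0.08, edgeR adjusted p = 0.00243). The call held with each library left out in turn (log2 fold change 0.38 to 0.49). The rise was as large in both hypoxia sets, at 0.45 within the 5 higher-score libraries (adjusted p = 0.0355) and 0.44 within the 4 lower-score libraries, where it missed the threshold (adjusted p = 0.102). Genes that do not overlap between the groups, in either direction, made up 21.2% of all genes tested. Within the 5 higher-score libraries 5 of the 9 Rgs genes did not overlap, against 50.5% of all genes tested, and within the 4 lower-score ones 4 of the 9, against 54.9%.

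Rgs12 encodes a large RGS protein that joins Gi-class alpha subunits and Ras-pathway kinases. The gene (ENSMUSG00000029101) lies on the plus strand of chromosome 5, 34949445 to 35039644. It was at 52.9, 67, 67.6 and 48.9 CPM in Ezh2-deficient replicates 1 to 4 and at 46, 44.7, 43.7, 34 and 37.9 CPM in WT replicates 1 to 5. The groups did not overlap, although the highest WT library and the lowest Ezh2-deficient one stood close together. The means were 59.1 ± 9.59 and 41.2 ± 5.11 CPM, a 1.43-fold rise (log2 fold change 0.52, SE 0.12, edgeR adjusted p = 0.0115). Both Ezh2-deficient libraries with a lower hypoxia score stood above both with a higher one. Within the 4 lower-score libraries the log2 fold change was 0.69 (adjusted p = 0.0438). Within the 5 higher-score libraries it was 0.29 and the call was lost (adjusted p = 0.193). Whether the change differs between these sets was not tested. Rgs12 shares 467 exonic bases with the antisense gene Gm43791, and the strand setting of the counting is not given in the sources used here.

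Rgs19, also called GAIP, encodes a small RGS protein first known as a partner of Gi-class alpha subunits. The gene (ENSMUSG00000002458) lies on the minus strand of chromosome 2, 181688419 to 181693977. It was at 75.6, 94.6, 82.5 and 76.6 CPM in Ezh2-deficient replicates 1 to 4 and at 103, 100.4, 107, 97.2 and 91.1 CPM in WT replicates 1 to 5. The groups overlapped in that Ezh2-deficient replicate 2 lay above WT replicate 5. The means were 82.3 ± 8.7 and 99.8 ± 6.09 CPM, which makes WT 1.21-fold higher (log2 fold change of Ezh2-deficient over WT -0.28, SE 0.09, edgeR adjusted p = 0.0361). This call was close to the threshold. Dropping any of Ezh2-deficient replicates 1, 3 and 4 or of WT replicates 1 and 3 ended it (adjusted p = 0.0532 to 0.0806), while the change stayed at -0.26 to -0.37 over all 9 such fits. The log2 fold change was -0.40 within the 5 higher-score libraries (adjusted p = 0.0242) and -0.19 within the 4 lower-score ones (adjusted p = 0.462).

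The opposite moves of Rgs10 and Rgs19 changed their balance within each library, a ratio that does not depend on how libraries are scaled. Counts of Rgs10 over Rgs19 were at 1.74, 1.36, 1.77 and 2.05 in Ezh2-deficient replicates 1 to 4 and at 1.03, 0.964, 0.906, 1.15 and 1.11 in WT replicates 1 to 5. The ratios did not overlap between the groups. Rgs12 over Rgs14, the pair with GoLoco motifs, was at 0.54 to 0.673 without Ezh2 and 0.36 to 0.512 in WT. Both ratios were chosen after the changes had been seen and are given as descriptions, with no test.

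The sequences before an annotated start of each of the 3 genes that moved are shown. Which starts were used in these Tregs was not measured. Each is the 250 bases upstream of a RefSeq start on GRCm38.p6, read 5′ to 3′ on the gene's strand, with CG dinucleotides in capitals, the bases that mark CpG islands. Rgs10 is at chr7:128418173-128418422 (minus strand), Rgs12 at chr5:34949198-34949447 (plus strand) and Rgs19 at chr2:181693978-181694227 (minus strand).
Rgs10: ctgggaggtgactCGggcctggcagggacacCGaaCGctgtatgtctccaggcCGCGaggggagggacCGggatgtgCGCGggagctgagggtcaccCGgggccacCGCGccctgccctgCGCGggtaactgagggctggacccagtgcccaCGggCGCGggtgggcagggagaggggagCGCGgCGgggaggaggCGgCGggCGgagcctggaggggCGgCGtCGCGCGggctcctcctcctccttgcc
Rgs12: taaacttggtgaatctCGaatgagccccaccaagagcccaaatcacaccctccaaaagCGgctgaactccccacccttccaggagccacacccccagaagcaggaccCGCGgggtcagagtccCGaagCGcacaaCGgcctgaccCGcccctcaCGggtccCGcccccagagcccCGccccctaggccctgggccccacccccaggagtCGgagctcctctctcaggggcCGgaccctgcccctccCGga
Rgs19: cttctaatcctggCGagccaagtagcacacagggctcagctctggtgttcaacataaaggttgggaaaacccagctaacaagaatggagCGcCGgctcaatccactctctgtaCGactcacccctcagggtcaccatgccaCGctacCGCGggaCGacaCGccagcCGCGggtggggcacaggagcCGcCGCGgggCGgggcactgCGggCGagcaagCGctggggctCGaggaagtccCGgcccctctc
The RefSeq start used for Rgs10 lies 586 bases inside the outermost GENCODE start of the gene. The Rgs10 window held 27 CG dinucleotides, Rgs12 held 14 and Rgs19 held 20, against a median of 6 over the windows of 27025 genes. Windows with at least as many made up 8.25%, 29.7% and 17.8% of all windows. The rising and the falling genes both had more CG than the median window. Among the 6 Rgs genes with a RefSeq window, Rgs2 held 30, Rgs16 held 17 and Rgs3 held 3. The bases after the start were found in a GENCODE transcript of the gene for 5 of the 6, the exception being Rgs3. The half-site of the cAMP response element, CGTCA searched on both strands, was found 2 times before Rgs2 and 0 times before Rgs10, Rgs12, Rgs19, Rgs16 and Rgs3, while 17.9% of all windows held it. These are matches of letters, and no binding was measured.

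**Figure D2:**
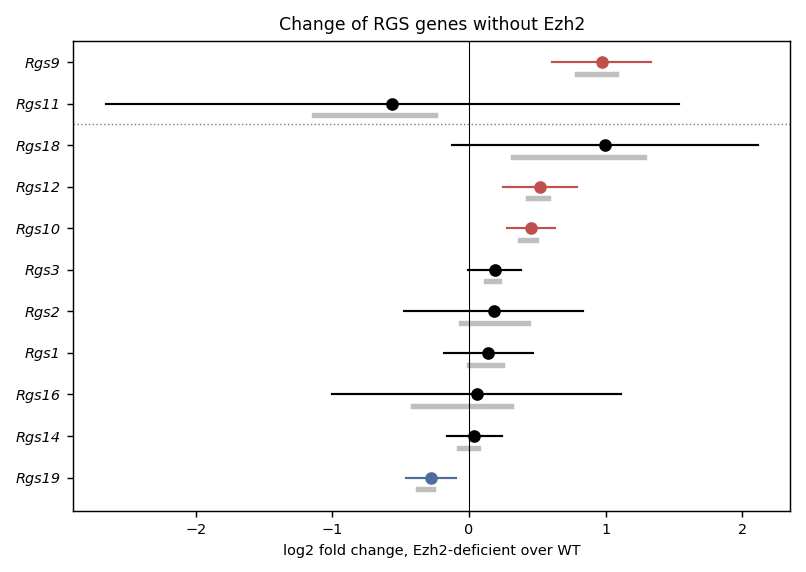
Log2 fold change, Ezh2-deficient over WT, of the 9 Rgs genes (below the dotted line) and of Rgs11 and Rgs9 (above it), with 95% confidence intervals (lines) from edgeR; red rose, blue fell, black did not pass, and grey bars span the values with each library left out. Rgs10 and Rgs12 lie above 0 and Rgs19 below 0 in every such fit.

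Of the 6 members that did not pass, Rgs3, Rgs14 and Rgs1 had the narrowest intervals. Rgs3, which encodes a regulator of Gi- and Gq-class subunits with short and long isoforms (ENSMUSG00000059810; chromosome 4, 62559847 to 62704001), was at 75.7, 84.2, 83.3 and 70.1 CPM in Ezh2-deficient and at 67, 61.3, 79.2, 68.7 and 68 CPM in WT libraries. Its groups overlapped through WT replicate 3. The means were 78.3 ± 6.68 and 68.8 ± 6.48 CPM (log2 fold change 0.19, 95% interval -0.0086 to 0.38, edgeR adjusted p = 0.151). It passed in limma-voom with quality weights (adjusted p = 0.0338). Rgs14 (ENSMUSG00000052087; chromosome 13, 55369732 to 55384687) was at 87.6 to 116 CPM without Ezh2 and 89.9 to 103 CPM in WT. The Ezh2-deficient range enclosed the WT range. Its interval of -0.16 to 0.24 around a log2 fold change of 0.04 (edgeR adjusted p = 0.798) leaves out changes of the size seen for Rgs10 and Rgs12.

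Rgs1, a gene of activated lymphocytes that limits responses to chemokines, had the most counts of the 9 (ENSMUSG00000026358; chromosome 1, 144242296 to 144249242, minus strand). It was at 267, 301, 292 and 301 CPM in Ezh2-deficient replicates 1 to 4 and at 344, 283, 175, 253 and 263 CPM in WT replicates 1 to 5. The WT libraries enclosed the Ezh2-deficient ones, with WT replicate 1 highest and WT replicate 3 lowest. The coefficient of variation was 23.1% in WT and 5.5% in Ezh2-deficient libraries, where the 500 genes closest in level had medians of 10.2% and 7.38%. The log2 fold change was 0.14 (95% interval -0.19 to 0.47, edgeR adjusted p = 0.531). A change as large as that of Rgs10 (0.455) lies just inside the upper limit of this interval (0.465).

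Rgs2, a regulator with a preference for Gq-class subunits (ENSMUSG00000026360; chromosome 1, 143999338 to 144004161, minus strand), was at 53.6, 32.6, 35 and 29.4 CPM in Ezh2-deficient and at 18.8, 31.3, 36.6, 54.3 and 25.1 CPM in WT libraries. The highest libraries of both groups stood at about the same level, and the lowest was WT replicate 1. Rgs16, which T cell activation induces (ENSMUSG00000026475; chromosome 1, 153740349 to 153745468, plus strand), was at 5.05, 10.8, 3.73 and 16 CPM in Ezh2-deficient and at 7.68, 8.7, 9.32, 14.2 and 3.31 CPM in WT libraries. Within each group the highest library was 4.28-fold above the lowest. Coefficients of variation were 28.9% and 40.8% for Rgs2 and 63.3% and 44.9% for Rgs16 in Ezh2-deficient and WT libraries, against medians of 10.3% and 10.8%, and of 16.3% and 16.2%, over the 500 genes closest in level to each. The log2 fold changes were 0.18 for Rgs2 (95% interval -0.47 to 0.83, edgeR adjusted p = 0.696) and 0.05 for Rgs16 (95% interval -1.004 to 1.11, edgeR adjusted p = 0.95). A change as large as that of Rgs10 lies inside both intervals and was not detectable with this spread. Rgs16 shares 236 exonic bases with the antisense gene Gm28513, whose own row summed to 5 counts without Ezh2 and 16 in WT.

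Rgs18, known from platelets and their precursors (ENSMUSG00000026357; chromosome 1, 144752683 to 144775435, minus strand), was the weakest of the 9. It had 42, 16, 77 and 34 counts in Ezh2-deficient and 30, 13, 15, 16 and 50 counts in WT libraries, which is 1.18, 0.365, 2.32 and 0.553 CPM against 0.507, 0.401, 0.43, 0.423 and 0.935 CPM. Ezh2-deficient replicates 1 and 3 were above every WT library, and replicate 2 was below all of them. The log2 fold change was 0.99 (95% interval -0.12 to 2.11, edgeR adjusted p = 0.181), and 0.32 without Ezh2-deficient replicate 3. Of 7 platelet and megakaryocyte markers, Pf4, Ppbp, Gp9 and Gp6 had 0 counts in all 9 libraries, which allows up to 0.0488 to 0.0926 CPM per library (3 counts). Itga2b, the integrin chain of platelets, was at 1.02 to 2.53 against 0.545 to 1.11 CPM and did not pass (edgeR adjusted p = 0.0632). The summed level of the list was 1.17 to 2.65 CPM without Ezh2 and 0.602 to 1.17 CPM in WT.

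Markers of other cells were also compared between the groups. Of 7 myeloid markers 4 were tested, and Itgam and Adgre1 rose (log2 fold change 0.80 and 1.75) while 0 fell. The other 2 did not pass, and the median log2 fold change of 0.09 over the 4 places both below 0. Over all genes tested 13.1% rose and 8.8% fell. The summed level of the myeloid list was 21.8 to 28.3 CPM without Ezh2 and 11.6 to 19.1 CPM in WT. It did not overlap between the groups, like Rgs10, Rgs12 and 21.2% of all genes tested. Itgam, which encodes CD11b, supplied most of it (21.2 ± 3.47 against 12.2 ± 2.95 CPM, edgeR adjusted p = 0.00817). The defining myeloid transcript Lyz2 was at most 0.113 CPM in any library, and Clec7a had counts in WT replicate 4 alone (0.0265 CPM). The part of these markers in the Rgs changes cannot be told apart from the group, and with their summed level as a covariate neither Rgs10 nor Rgs12 passed (edgeR adjusted p = 0.636 and 0.627), while the log2 fold change was 0.32 for Rgs10 and 0.52 for Rgs12, against 0.46 and 0.52 without the covariate. Over all genes 18 passed with this covariate, against 3001 without it. The CD8 T cell gene Cd8a ranged from 0.361 to 79.9 CPM in the Ezh2-deficient and from 1.98 to 97.6 CPM in the WT libraries. With Cd8a as a covariate Rgs10, Rgs12 and Rgs19 all passed (edgeR adjusted p = 0.0012, 0.0107 and 0.00718). Of 5 NK cell markers, Ncr1, Klra8 and Klra4 had 0 counts in all libraries, and the summed level of the list was at most 3.35 CPM without Ezh2 and 2.27 CPM in WT. Of 6 B cell markers 5 were tested and 1 fell, Cd79a, and the summed level of the list was 12.7 to 19.5 against 18.7 to 21.7 CPM. Of 6 erythroid markers 2 were tested and 1 rose, Hba-a1, with a summed level of 5.41 to 19.4 against 2.17 to 7.74 CPM.

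Levels can be compared between genes only per length, and CPM was therefore divided by the kilobases of exon of each gene. In WT Tregs Rgs10 stood highest at 60 ± 3.78 CPM per kb, followed by Rgs19 at 44.8 ± 2.73 and Rgs1 at 37.9 ± 8.76 CPM per kb. Rgs19 and Rgs1 did not differ beyond their spread, with libraries at 40.9 to 48 and 25.2 to 49.5 CPM per kb. Rgs14 came next at 22.7 ± 1.36 CPM per kb, and all its WT libraries lay below all those of Rgs1. Rgs2 (9.16 ± 3.73 CPM per kb) and Rgs3 (6.37 ± 0.6) overlapped, as did Rgs12 (4.86 ± 0.603) and Rgs16 (3.69 ± 1.66). Rgs18 closed the order at 0.266 ± 0.111 CPM per kb. In Ezh2-deficient Tregs Rgs10 was at 82.3 ± 7.83 CPM per kb, and Rgs1 at 41.8 ± 2.3 stood before Rgs19 at 36.9 ± 3.9, again with overlapping libraries. Divided by the longest transcript in place of all exons, Rgs3 (14.7 CPM per kb) moved ahead of Rgs2 (11 CPM per kb) in WT. The other ranks stayed, and the libraries of Rgs14 and Rgs1 then overlapped. By that length all WT libraries of Rgs19 (60.3 to 70.8 CPM per kb) lay above those of Rgs1 (30 to 58.9). Those of Rgs12 (6.21 to 8.41) likewise lay above those of Rgs16 (1.42 to 6.05).

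**Figure D3:**
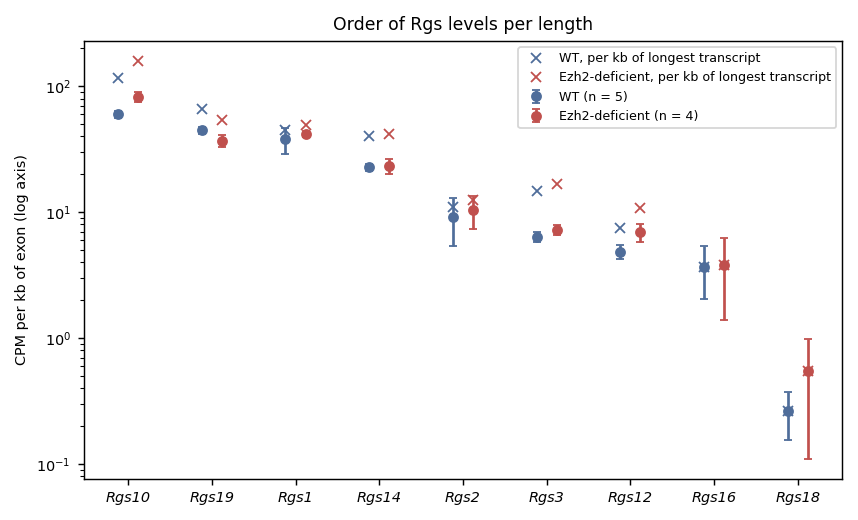
Mean CPM per kb of exon (log axis) of the 9 Rgs genes in WT (blue, n = 5) and Ezh2-deficient Tregs (red, n = 4) with SD, ordered by the WT mean; crosses divide by the longest transcript instead. Rgs10 is highest and Rgs18 lowest in both groups under both lengths.

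The 13 further RGS genes listed for the mouse were mostly at or near 0. Rgs4, Rgs5, Rgs7, Rgs17 and Rgs21 had 0 counts in every library, and another 6 had too few to be tested, at most 79 counts over all 9 libraries. Rgs9 and Rgs11, close relatives best known from the retina that pair with the G beta subunit encoded by Gnb5, were tested. Rgs9 was at 24.8, 23.2, 24 and 35 CPM in Ezh2-deficient and at 10.5, 12.2, 15.6, 17.4 and 12.7 CPM in WT libraries, a 1.96-fold rise without overlap (log2 fold change 0.97, SE 0.17, edgeR adjusted p = 0.00191). Its rise held with each library left out (0.79 to 1.07) and within the 5 higher-score libraries (1.16, adjusted p = 0.0162), and missed the threshold within the 4 lower-score ones (0.71, adjusted p = 0.0785). Its partner Gnb5 did not pass (4.76 ± 1.38 against 4.9 ± 0.387 CPM, edgeR adjusted p = 0.922).

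Rgs11 separated the libraries by hypoxia score. It was at 44.8 to 53.9 CPM in the 2 Ezh2-deficient and 53.3 to 73 CPM in the 3 WT libraries with a higher score, and at 5.39 to 6.94 and 11.1 to 12.7 CPM in those with a lower score. The Ezh2-deficient libraries lay below the WT ones in the lower-score set and overlapped them in the higher-score set. Over all libraries the log2 fold change was -0.56 (95% interval -2.66 to 1.53, edgeR adjusted p = 0.695), and with the score as a covariate it was -0.66 (adjusted p = 0.00244). With that covariate Rgs10 was at 0.46, Rgs12 at 0.49 and Rgs19 at -0.29, and all passed (edgeR adjusted p = 0.00127, 0.0072 and 0.0209).

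**Figure D4:**
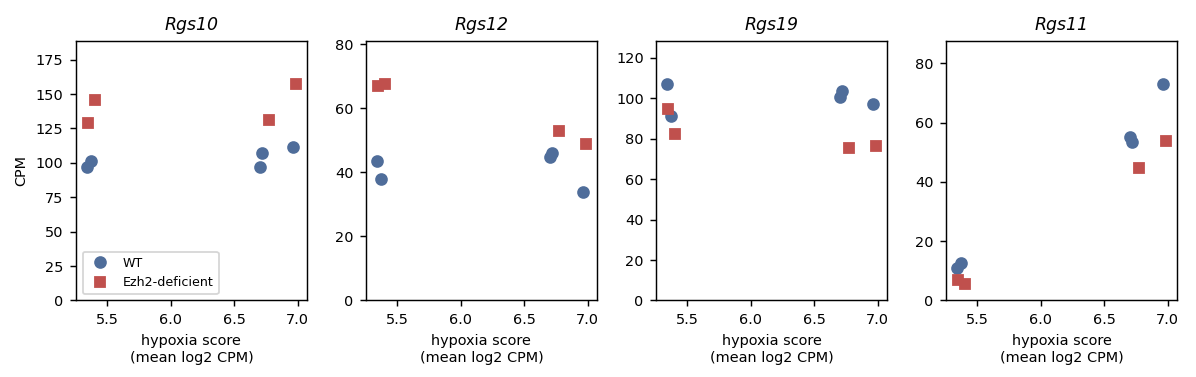
CPM of Rgs10, Rgs12, Rgs19 and Rgs11 (vertical axes, linear, from 0) against the hypoxia score of each library, the mean log2 CPM of 24 hypoxia-response genes, for 5 WT (circles) and 4 Ezh2-deficient libraries (squares). Rgs11 is at 5.39 to 12.7 CPM in the 4 lower-score and 44.8 to 73 CPM in the 5 higher-score libraries. Rgs10 and Rgs12 separate by genotype within both sets. Of all genes tested, 50.5% separate within the higher-score and 54.9% within the lower-score libraries.

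Genes of the G protein pathway around the Rgs transcripts moved in both directions, as did genes at large. Over all genes tested 13.1% rose and 8.8% fell, 21.9% together, which is the share to set beside each list below. The groups did not overlap for 21.2% of all genes tested. The lists were not tested as sets. Of 15 other genes whose proteins hold an RGS or RGS-like domain 13 were tested, of which 1 rose and 2 fell (median log2 fold change -0.00016). The receptor kinase genes Grk2 and Grk6, whose products mark active receptors for arrest, fell from 664 ± 76.8 to 484 ± 27.5 CPM and from 492 ± 19.3 to 373 ± 41.6 CPM (log2 fold change -0.46 and -0.40, edgeR adjusted p = 0.00554 and 0.00629). Both fell without overlap between the groups. Arhgef12, an exchange factor that receives signals from alpha subunits, rose from 85.5 ± 6.76 to 110.3 ± 7.33 CPM (log2 fold change 0.37, edgeR adjusted p = 0.00741).

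The alpha subunits are the substrates of RGS proteins. Of 16 alpha subunit genes 10 were tested, of which 2 rose and 1 fell (median log2 fold change 0.11). Gnaq, the Gq subunit, was at 133, 118, 147 and 154 CPM in Ezh2-deficient and at 92.1, 69.3, 55.7, 71.1 and 84.8 CPM in WT libraries, a 1.85-fold rise without overlap (log2 fold change 0.89, edgeR adjusted p = 0.000948). The related Gna15 rose by 0.34 and Gna11 fell by 0.30 on the log2 scale (edgeR adjusted p = 0.0373 and 0.0432), both with overlapping groups. Leaving out 1 library ended the Gna15 call except when WT replicate 5 was dropped, and the Gna11 call except when replicate 1 or 2 of either group was dropped. The main Gi subunits of lymphocytes, Gnai2 and Gnai3, did not pass, at 946 ± 84.2 against 1073 ± 65.7 CPM and 281 ± 27.1 against 252 ± 27.8 CPM (edgeR adjusted p = 0.136 and 0.257).

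Of 17 beta and gamma subunit genes 10 were tested, of which 1 rose and 1 fell (median log2 fold change -0.05). Gng12, a gamma subunit gene on chromosome 6 like Ezh2, rose 2.15-fold, from 18.8 ± 2.03 to 40.4 ± 2.15 CPM (log2 fold change 1.11, edgeR adjusted p = 3.52e-05). Gng10 fell at a very low level, with 25 counts over the 4 Ezh2-deficient and 88 over the 5 WT libraries (edgeR adjusted p = 0.045). Its call was lost without Ezh2-deficient replicate 1, 2 or 3 (adjusted p = 0.0828 to 0.0995), and without WT replicate 1, 3, 4 or 5 it had too few counts to be tested. Of 9 genes of chaperones and GoLoco proteins 8 were tested, of which 2 rose and 1 fell (median log2 fold change 0.11), namely Ric8b, a chaperone of alpha subunits, Rap1gap2 and Rap1gap (log2 fold change 0.39, 0.79 and -1.75; edgeR adjusted p = 0.0101, 0.00931 and 0.0132). Of 26 effector genes 22 were tested, of which 5 rose and 1 fell (median log2 fold change 0.15). The phospholipase gene Plcb2, which Gq-class subunits activate, rose by 0.68, whereas Plcb3 fell by 0.62 on the log2 scale (edgeR adjusted p = 0.000293 and 0.00981). The adenylyl cyclase gene Adcy6, a target of Gi-class subunits, rose by 0.75, and Pik3r6, a subunit gene of the G beta gamma-driven PI3 kinase, rose by 1.66 from 0.285 ± 0.111 CPM (edgeR adjusted p = 0.00319 and 0.0103).

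Of 38 genes of receptors that couple to these G proteins in lymphocytes 33 were tested, of which 5 rose and 4 fell (median log2 fold change 0.13). The nucleotide receptor gene P2ry14 was at 7.6 to 14.2 against 2.2 to 4.2 CPM, the adenosine receptor gene Adora2b at 6.2 to 14.6 against 1.8 to 3.5 CPM and P2ry10 at 240 to 288 against 149 to 215 CPM in Ezh2-deficient and WT libraries. These 3 rose (log2 fold change 1.77, 1.88 and 0.60; edgeR adjusted p = 0.000327, 0.000555 and 0.00239), and none overlapped between the groups. Of the 33 tested receptor genes 8 did not overlap, against 21.2% of all genes tested. The fractalkine receptor gene Cx3cr1 rose as well, by 1.73 (edgeR adjusted p = 0.000307). The 4 that fell were the chemokine receptor genes Ccr6, Ccr4 and Cxcr5 and the sphingosine 1-phosphate receptor gene S1pr2. Ccr6 had the largest change of the 33, at 3.4 to 7.3 CPM without Ezh2 and 11.9 to 35.2 CPM in WT, without overlap (log2 fold change -2.40, edgeR adjusted p = 0.00248). Ccr4 fell by 0.55, Cxcr5 by 1.01 and S1pr2 by 0.48 on the log2 scale (edgeR adjusted p = 0.0118, 0.0328 and 0.0408).

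Of the 9 Rgs genes, 4 lie on chromosome 1, where Rgs2, Rgs1 and Rgs18 stand in that order on the minus strand with Rgs13 and Rgs21 between them, and Rgs16 lies farther along. None of the 4 passed. Within 0.5 Mb of the 4 there were 19 other protein-coding genes, of which 11 were tested, 3 rose and 0 fell. Over all genes tested 13.1% rose and 8.8% fell, 21.9% together, and the neighbours were not tested as a set. B3galt2, a galactosyltransferase gene 345 kb from Rgs2, rose to 1.56 ± 0.961 from 0.137 ± 0.0913 CPM (log2 fold change 3.44, edgeR adjusted p = 0.000869). It lies inside Cdc73 on the opposite strand, whose level did not pass the test, with 71.8 ± 5.32 CPM against 69 ± 7.85 CPM (edgeR adjusted p = 0.703), and the strand setting matters here too. Trove2, which encodes the Ro RNA-binding protein, rose by 0.66, and the laminin gene Lamc1, 408 kb from Rgs16, rose by 0.56 on the log2 scale (edgeR adjusted p = 0.0122 and 0.00824). Without Ezh2-deficient replicate 1, Trove2 was at 0.54 and missed the threshold (adjusted p = 0.0513).

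**Figure D5:**
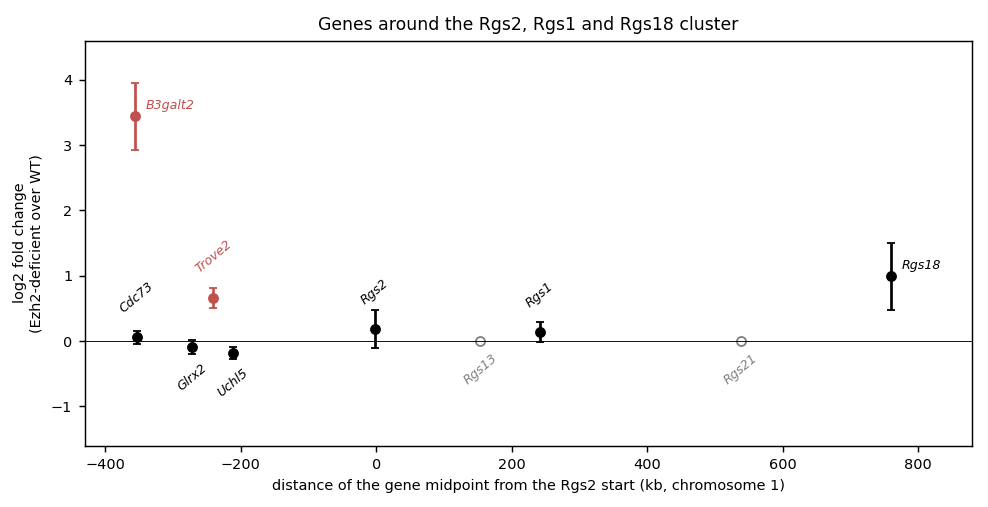
Log2 fold change, Ezh2-deficient over WT, with its SE (bars) of the protein-coding genes within 1 Mb of Rgs2, Rgs1 and Rgs18 against the distance of each gene's midpoint from the Rgs2 start (kb); red rose, black did not pass, and open grey circles at 0 had too few counts to be tested. B3galt2 (3.44) and Trove2 (0.66) rose, and the 3 Rgs genes tested did not pass.

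The tested genes with the profile most like each changed member were found by the root mean square distance between log2 CPM profiles over the 9 libraries, each centred on its mean. Those nearest to Rgs10 were Akr1b10, Trim30a and Focad, at distances of 0.0741 to 0.0801. Those nearest to Rgs12 included She and Rab37, at 0.0953 and 0.0968. Rgs19 had the closest neighbours of the 9, Srrt, Pank4 and Polg at 0.0428 to 0.0546, whereas the nearest profile to Rgs16 was 0.349 away and that to Rgs18 0.415. The profiles were not scaled to a common spread, so this distance tends to be larger for genes that vary more. Coefficients of variation in Ezh2-deficient and WT libraries were 10.6% and 6.1% for Rgs19, 63.3% and 44.9% for Rgs16, and 79.8% and 41.7% for Rgs18.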

How the data were processed

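RNA was sequenced from 4 Ezh2-deficient and 5 WT cultures, which the series' design text calls biological replicates, with a stranded mRNA kit per the labels. The authors deposited whole-number counts per gene that were not normalized. Per the submitters' processing notes, STAR and GRCm38 were used, while the sources used here name neither a counter nor its strandedness nor a gene annotation. Symbols and positions came from GENCODE M21, which held 42462 of the 43432 identifiers. Promoter windows came from RefSeq on GRCm38.p6, which listed 6 of the 9 members.

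A count was present for 22839 genes, and the 13685 that filterByExpr kept went into a quasi-likelihood F-test with robust dispersions in edgeR 4.0.16 (R 4.3.3) on TMM-scaled library sizes, with two-sided Benjamini-Hochberg adjusted p over all genes tested and a threshold of 0.05. The fit was checked on simulated counts. CPM are means ± SD, and log2 CPM used a prior count of 2. The lowest chi-square per degree of freedom between libraries was 21.9, so each counted once. Counting limits cover counting error only. The members and lists were chosen with earlier results of these data known. Named genes were the 9 members, Ezh2, up to 4 changed genes per pathway list or neighbourhood, and the 3 nearest profiles of each changed member, of which 1 is not reported here. Rgs11, Gnb5, Gnai2, Gnai3, Cdc73, Ccr6, Ccr4, Cxcr5 and S1pr2 were named after their values were seen. Alternatives used DESeq2 1.42.0 and limma 3.58.1 among others. Chosen after the data were examined were the fits within each hypoxia set and the myeloid covariate.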

Additional observations from a re-analysis of the deposited data

Results flagged for a closer look

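Among the 46 named genes in 2 groups, 92 sets of 4 or 5 libraries were examined for a library far from the others, and 4 were found, where chance gives about 1 in 20. Rgs18 in WT replicate 5 was at 0.935 CPM, against 0.401 to 0.507 CPM in the other WT libraries. Rgs9 in Ezh2-deficient replicate 4 was at 35 CPM, against 23.2 to 24.8 CPM in the other 3. B3galt2 in WT replicate 5 was at 0.299 CPM, with the others at 0.0794 to 0.115 CPM. Lamc1 in Ezh2-deficient replicate 4 was at 177 CPM, below the other 3 at 203 to 207 CPM.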

How the results depend on the processing

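The 2 rises and 1 fall among the Rgs genes were the same in number under total-count, upper-quartile and relative log expression scaling, both other filters, DESeq2, limma-voom, the replicate block and the hypoxia and Cd8a covariates. Limma-voom with quality weights called 3 rises. Against a 1.5-fold change, 0 rises and 0 falls remained to be called, with 410 of all genes, 5 pathway genes and 1 chromosome 1 neighbour (3001, 27 and 3 otherwise). Within the 5 higher-score libraries there were 1 rise, 5 members without overlap (50.5% of all genes) and 1764 genes called, and within the 4 lower-score ones 1 rise, 0 falls, 4 members without overlap (54.9% of all genes), 570 genes, 9 pathway genes and 0 neighbours. With the myeloid covariate 0 rises, 0 falls, 18 genes, 0 pathway genes and 0 neighbours passed, with Rgs12 at 0.52, Rgs10 at 0.32, Rgs19 at -0.20 and Rgs9 at 1.22. The fall of Rgs19 gave 0 falls with sex as a covariate (log2 fold change -0.275, adjusted p = 0.0554) or without the highest Cd8a library of each group (-0.26, adjusted p = 0.109), against -0.28 otherwise. Leaving out 1 library gave 0 to 1 falls and 1972 (without Ezh2-deficient replicate 3) to 3168 genes.

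Signs turned only for values that had not passed, or under the myeloid covariate. Leave-one-out ranges were -0.0038 to 0.24 for Rgs1, -0.062 to 0.43 for Rgs2, -0.071 to 0.069 for Rgs14 and -0.41 to 0.31 for Rgs16. Rgs1 was at -0.049 within the higher-score libraries. Rgs14 was at -0.052 there and -0.032 with the Cd8a covariate. Rgs16 was at -0.19 with quality weights, -0.34 with the replicate block, -0.031 with sex and -0.14 without the highest Cd8a libraries. With the myeloid covariate Rgs1 was at -0.43, Rgs14 at -0.11, Rgs18 at -0.060, Gna15 at -0.093, Rap1gap2 at -0.12, Itgam at -0.23 and Rgs11 at 0.93. The cause was not tested. Same-numbered libraries of the groups correlated at 0.153, -0.0834, 0.114 and 0.187 in their deviations from the group means. Differently numbered ones correlated at -0.254 to 0.319. So few values cannot decide whether the numbers pair the libraries. The replicate block called 2751 genes.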
